A study of Homo sapiens with 21 samples.

Results

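The late-onset genes were 9 genes whose mRNA lay near or below its untreated level on the first days of TGFβ treatment and well above it at day 20. They were SPP1, TMPRSS15, MAP1A, SCN2A, BGN, SHISA9, PDGFRB, C14orf132 and MGC23284, out of 23201 gene symbols measured. The genes were selected on the values themselves. A gene had a mean normalised read count of at least 10 untreated (d0), means at d1 and d4 of at most 1.25 times the d0 mean, and a d20 mean of at least 50 and at least 2.5 times the d0 mean. Symbols beginning COL, CDH, MMP or ITG were to be left out, which removed 0 genes once the other conditions were met. The values at d0, d1, d4 and d20 therefore describe the set and test nothing about it.

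RNA sequencing covered HMLE cells, an immortalised line of human mammary epithelial cells, left untreated (d0) or treated with TGFβ for 1, 4, 7, 10, 15 or 20 days (d1 to d20). Each of these 7 timepoints had 3 libraries, which the study calls biological triplicates, and the 21 libraries held 18847917 to 22667754 reads. The TGFβ dose is not given in the sources used here. No untreated library from a later day was analysed here, so days of TGFβ and days in culture cannot be told apart. All 23 listed epithelial markers were detected above the low-value filter, and 8 of 14 immune cell markers had at most 3 reads in every library. Library 3 of d7 stood apart: its root mean square log2 difference from the other libraries of d7 was 0.47 and 0.46, against 0.22 between those and 0.21 to 0.24 for all 18 pairs at other timepoints. The libraries carry no replicate number, and library 1 to 3 only names their order.

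TGFβ binds receptor kinases at the cell surface that phosphorylate SMAD proteins, which enter the nucleus and change transcription together with other factors. In mammary epithelial cells it drives epithelial-to-mesenchymal transition (EMT), in which cells lose junctions, gain motility and lay down matrix. Matrix and cytoskeletal genes are known to respond early in this programme. The 9 genes encode a secreted matrix glycoprotein (SPP1), a matrix proteoglycan (BGN), a growth factor receptor (PDGFRB), a microtubule-binding protein (MAP1A), a sodium channel subunit (SCN2A), an auxiliary subunit of glutamate receptors (SHISA9) and a membrane-anchored protease (TMPRSS15). The other members, C14orf132 and MGC23284, have no role that can be stated here.

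Promoter sequences are shown for 5 members, so that their sequence can be read beside their values. RefSeq windows (GRCh38.p14) from 250 bases before to 50 bases after the gene start matched 6 of the 9 genes with 8 windows. SCN2A, BGN and PDGFRB, which fell between d7 and d10 and rose between d10 and d15, and SPP1 and MAP1A, high at d20 alone, are shown with the first window listed for each. The windows are chr2:165239164-165239463 for SCN2A (plus strand), chrX:153494730-153495029 for BGN (plus strand), chr5:150155796-150156095 for PDGFRB (minus strand), chr4:87975464-87975763 for SPP1 (plus strand) and chr15:43510704-43511003 for MAP1A (plus strand). Capitals mark exact matches on either strand to the ZEB and SNAIL E-box CACCTG, the SMAD box GTCTG, the AP-1 site TGANTCA and the TEAD site GGAATG, and no matches overlapped in these windows.
SCN2A: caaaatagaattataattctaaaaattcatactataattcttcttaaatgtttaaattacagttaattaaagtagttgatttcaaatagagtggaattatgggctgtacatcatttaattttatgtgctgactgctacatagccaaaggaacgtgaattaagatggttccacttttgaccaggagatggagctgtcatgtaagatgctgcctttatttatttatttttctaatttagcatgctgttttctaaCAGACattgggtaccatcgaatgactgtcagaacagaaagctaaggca
BGN: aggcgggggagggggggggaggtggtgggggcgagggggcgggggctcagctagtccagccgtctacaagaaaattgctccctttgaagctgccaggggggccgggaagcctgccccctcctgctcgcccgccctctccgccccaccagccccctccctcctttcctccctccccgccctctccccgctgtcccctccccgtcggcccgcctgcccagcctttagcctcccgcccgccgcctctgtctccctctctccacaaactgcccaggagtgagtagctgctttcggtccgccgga
PDGFRB: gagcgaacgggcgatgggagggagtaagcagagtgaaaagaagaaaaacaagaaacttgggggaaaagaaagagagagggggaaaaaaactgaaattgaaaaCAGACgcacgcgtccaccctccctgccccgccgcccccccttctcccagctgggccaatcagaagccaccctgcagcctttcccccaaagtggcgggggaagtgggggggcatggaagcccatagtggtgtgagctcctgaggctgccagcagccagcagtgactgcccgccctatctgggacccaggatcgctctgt
SPP1: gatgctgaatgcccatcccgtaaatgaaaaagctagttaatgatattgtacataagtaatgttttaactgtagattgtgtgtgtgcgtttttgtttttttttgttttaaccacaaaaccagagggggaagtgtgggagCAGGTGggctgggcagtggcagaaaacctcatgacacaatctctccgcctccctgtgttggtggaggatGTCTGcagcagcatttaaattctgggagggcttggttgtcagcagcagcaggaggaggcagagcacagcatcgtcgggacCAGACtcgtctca
MAP1A: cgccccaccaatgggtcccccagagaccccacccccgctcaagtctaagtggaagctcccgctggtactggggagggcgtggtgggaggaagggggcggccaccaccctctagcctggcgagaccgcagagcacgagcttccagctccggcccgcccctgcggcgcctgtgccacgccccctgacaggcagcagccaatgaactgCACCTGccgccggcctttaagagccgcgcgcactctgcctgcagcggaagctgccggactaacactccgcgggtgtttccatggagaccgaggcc

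The E-box letters occurred in 2 of the 8 windows, those of SPP1 and MAP1A, against 20.6% of all 35116 promoter windows. The SMAD box letters occurred in 5 of 8 windows against 45.3% of all windows. The AP-1 letters occurred in 1 of 8, that of TMPRSS15, against 7.71%. The TEAD letters occurred in 0 of 8 against 14.03%. The 5 windows shown differed widely in base composition, with a GC content of 31.7% for SCN2A, 47.7% for SPP1, 59.3% for PDGFRB, 69.3% for MAP1A and 71.7% for BGN, against a median of 58.7% over all windows. The BGN window held none of the 4 motifs, and the 3 genes that fell between d7 and d10 and rose between d10 and d15 thus shared no motif match. A match is a description of letters and not a binding site.

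Late onset was uncommon among genes that were high at d20. Of the 13241 genes with a d0 mean of at least 10, 491 (3.71%) met the d20 conditions. Of these, 459 were above the ceiling of 1.25 times d0 at both d1 and d4, 8 at d1 alone, 15 at d4 alone and 9 at neither. The late-onset genes were thus 1.83% of the 491, and 0.101% of the 8945 genes at or under the ceiling on both days. The median of the 491 genes for the higher of the d1 and d4 ratios was 3.73. The 461 other genes of the 491, after the 4 symbol prefixes were left out, are called early-onset genes here.

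**Figure D1:**
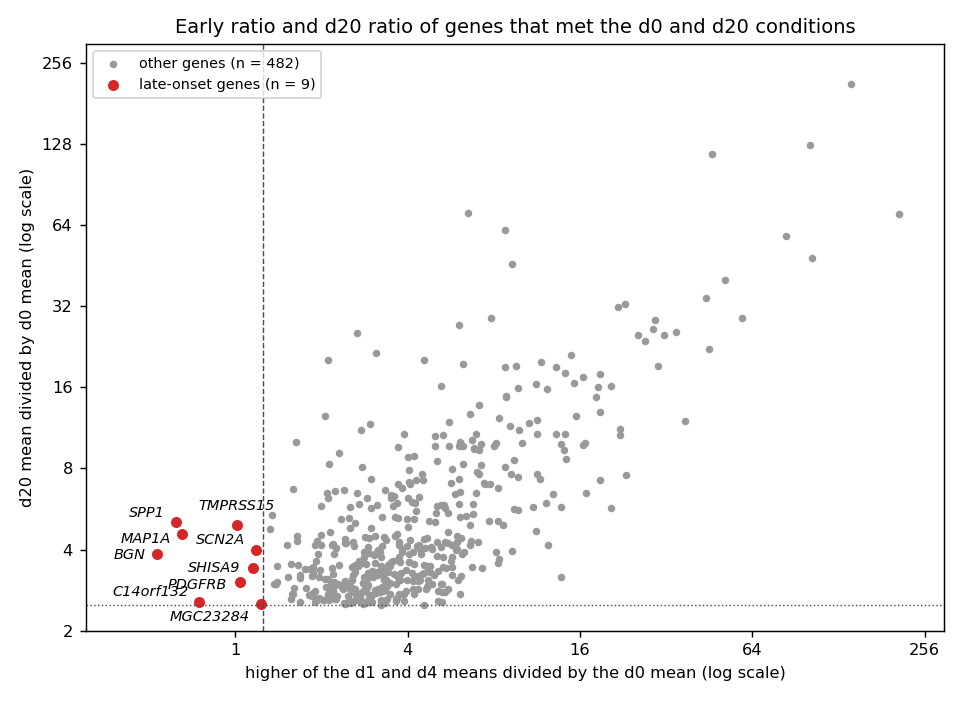
Each point is 1 of the 491 genes that met the d0 and d20 conditions, with the higher of its d1 and d4 means divided by its d0 mean on the x axis and its d20 mean divided by its d0 mean on the y axis, both on log scales. The dashed line is the ceiling of 1.25 and the dotted line the 2.5-fold limit; the 9 late-onset genes (red) lie left of the dashed line, between 2.51-fold and 5.04-fold, and the other genes (grey) lie to its right.

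The members just under the ceiling were MGC23284 (highest early ratio 1.23), SCN2A (1.18) and SHISA9 (1.15). The genes just above it were GLIPR2 (1.33), FSD1 (1.34) and EDA2R (1.36). The members nearest the d20 limit were MGC23284 (2.51-fold), C14orf132 (2.56-fold) and PDGFRB (3.03-fold). On its other side lay NRGN (2.45-fold), DGKG (2.37-fold) and NAP1L2 (2.35-fold). PSTPIP1 was 2.97-fold higher at d20 but had a d20 mean of 48.0, and C14orf132 passed with a d20 mean of 50.1. Leaving out library 1 or library 3 of d20, or library 2 or 3 of d0, removed C14orf132 from the set. MGC23284 dropped out without library 1 or 2 of d0, library 1 of d1 or library 2 of d20, and SCN2A dropped out without library 3 of d0. The other 6 genes stayed in the set with any single library left out.

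The values fell into 3 shapes, a grouping made after they were seen. SPP1, MAP1A and MGC23284 were high at d20 alone. SCN2A, BGN and PDGFRB were higher at d7 than at d10 and highest at d15. TMPRSS15 and SHISA9 had a higher mean at each timepoint from d4 to d20, and C14orf132 was low in reads throughout with its highest means at d15 and d20. The changes between d7, d10 and d15 were tested with limma, since these timepoints were not used to choose the genes. The rule did require a low d4 and a high d20, so the choice can favour a rise over the days between. Adjusted p is the Benjamini-Hochberg value over the 13343 genes tested, with a threshold of 0.05, and all 9 members passed the low-value filter. Log2 differences are on the scale of log2(count + 1). In bulk RNA, fewer cells of a type and less RNA per cell cannot be told apart.

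**Figure D2:**
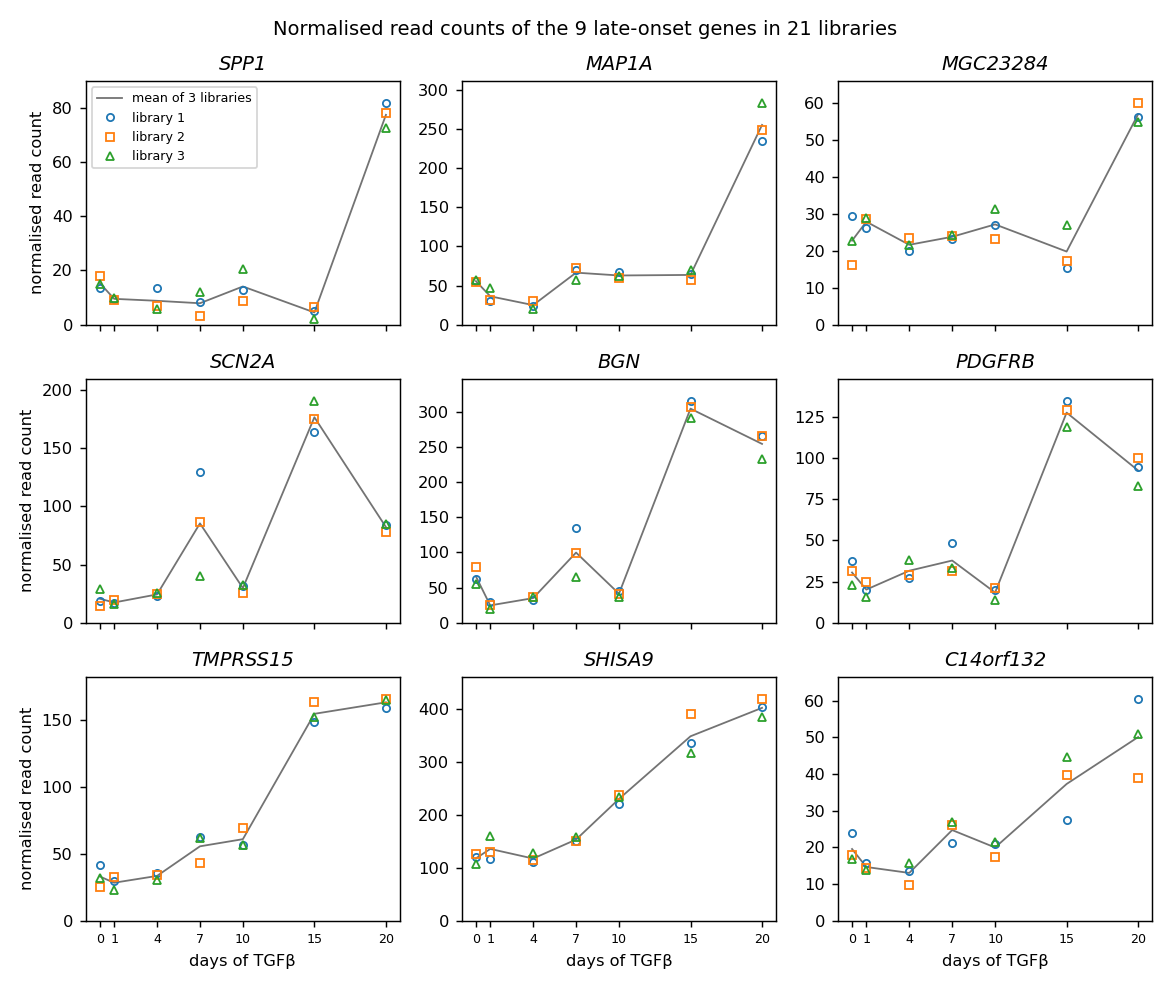
Normalised read counts (y axis, from 0) of each late-onset gene in the 3 libraries of each timepoint against days of TGFβ (x axis), with symbols for libraries 1 to 3 and a line through the means. The top row holds the genes high at d20 alone. The middle row holds the genes with a higher mean at d7 than at d10 and their highest mean at d15, and the bottom row the remaining genes.

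Among the secreted matrix proteins, SPP1 encodes osteopontin, a phosphoglycoprotein of bone and of many tumours that binds integrins and CD44. Its normalised read counts were 13.4, 17.8 and 14.8 at d0, 9.41, 9.23 and 9.92 at d1, and 13.7, 6.82 and 5.88 at d4. The d7 libraries held 8.44, 3.13 and 12.1, the d10 libraries 12.9, 8.75 and 20.53, the d15 libraries 5.10, 6.33 and 2.07 and the d20 libraries 81.6, 77.9 and 72.5. Every d20 library was thus above every other library, and the d15 libraries were among the lowest, with 2 to 7 reads each. The d20 mean was 5.04 times the d0 mean and 17.2 times the d15 mean. SPP1 fell between d10 and d15 by 1.47 on the log2 scale (SE 0.40, limma adjusted p = 0.0021), and by 0.71 with a pseudocount of 10. It differed by 0.84 between d7 and d10 (95% interval 0.01 to 1.67, limma adjusted p = 0.065), a difference that passed the threshold without library 3 of d7 (1.20, adjusted p = 0.0070) or library 2 of d10 (1.12, adjusted p = 0.029). The same difference was 0.36 without library 2 of d7 (adjusted p = 0.41) and 0.54 without library 3 of d10 (adjusted p = 0.27). The d15 against d7 difference was -0.63 (interval -1.46 to 0.20).

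Osteopontin belongs to the SIBLING glycoproteins, a cluster of bone and tooth matrix genes. Of the other SIBLING genes, IBSP, DMP1, MEPE and DSPP, all 4 had at most 3 reads in every library. Of the 4 osteopontin receptor genes looked at, CD44 had means of 11610, 24345, 33115 and 19355 at d0, d1, d4 and d20. ITGAV had means of 3677, 7333, 10171 and 8921 on the same days, and ITGB5 had means of 1893, 4896, 5501 and 4023. ITGB3 had means of 2.71, 21.8, 37.4 and 46.5, and like SPP1 its highest mean was at d20. All 4 were above d0 on the first day, when the SPP1 mean was 0.62 times its d0 mean. These relatives and partners, like those given for the other members, were chosen after the members were known.

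BGN encodes biglycan, a small leucine-rich proteoglycan that binds collagen and TGFβ. Its counts were 62.3, 79.7 and 55.4 at d0, 29.3, 25.6 and 18.9 at d1, and 32.6, 36.0 and 36.2 at d4, so all early libraries lay below all d0 libraries. Counts in the d7 libraries were 135, 99.0 and 65.2, the d10 libraries 45.8, 40.8 and 37.2, the d15 libraries 315, 308 and 291 and the d20 libraries 265, 265 and 233. The d10 libraries were all below the d7 libraries, and the d15 libraries were above all others. BGN fell by 1.20 on the log2 scale between d7 and d10 (SE 0.20, limma adjusted p = 1.44e-05), rose by 2.86 between d10 and d15 (SE 0.20, adjusted p = 1.83e-11), and was 1.66 higher at d15 than at d7 (SE 0.20, adjusted p = 3.63e-07).

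HAUS7, a subunit of the augmin complex, overlaps BGN on the opposite strand in the GENCODE annotation, and it is not stated here whether the counting used strand. Without strand, reads of the 2 genes cannot be told apart. HAUS7 means were 349, 426, 315, 277, 528, 241 and 450 from d0 to d20, the other way round from BGN at d7, d10 and d15: low at d7 and d15 and high at d10. Of the other small leucine-rich proteoglycan genes, DCN, LUM, FMOD, ASPN and OGN had at most 3 reads in every library. PRELP had a mean of 12.9 at d0 and 8.95 at d20. Genes with a d0 mean under 10 could not meet the d20 conditions, which left BGN and PRELP of the 7 looked at. BGN met them and PRELP did not, against 3.71% of all genes with a d0 mean of at least 10.

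PDGFRB encodes the beta receptor for platelet-derived growth factor, a tyrosine kinase typical of mesenchymal and perivascular cells. Its counts were 37.4, 31.4 and 22.8 at d0, 19.9, 24.6 and 15.9 at d1, and 27.3, 29.2 and 38.2 at d4. Libraries of d7 had 48.5, 31.3 and 33.5, the d10 libraries 19.9, 21.4 and 13.7, the d15 libraries 135, 129 and 119 and the d20 libraries 94.3, 99.98 and 83.2. The early libraries overlapped those of d0, the d10 libraries lay below those of d7, and d15 and d20 lay above all others without overlap between them. PDGFRB fell by 1.00 between d7 and d10 (SE 0.22, limma adjusted p = 0.00031), rose by 2.76 between d10 and d15 (SE 0.22, adjusted p = 1.61e-10) and was 1.76 higher at d15 than at d7 (SE 0.22, adjusted p = 6.39e-07).

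Several PDGF ligand genes were above their d0 means at d1, when PDGFRB was at 0.66 of its own. PDGFA had means of 554 at d0, 916 at d1 and 763 at d20, PDGFB had means of 105, 268 and 174, and PDGFC had means of 497, 1044 and 1329. PDGFC was 2.68-fold above d0 at d20 and met the d20 conditions as an early-onset gene. PDGFRA, the gene of the alpha receptor, had means between 0 and 5.76 over the 7 timepoints, and PDGFD had means between 0 and 3.92.

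BGN and PDGFRB were the 2 members on any of 19 gene lists drawn up for this series, both on the list of fibroblast matrix and proteoglycan genes. That list held 37 genes, of which 24 were tested, 21 had a d0 mean of at least 10 and 12 met the d20 conditions. The other 10 of those 12 were above the ceiling at d1, d4 or both. Between d7 and d10, 5 of the 24 rose and 11 fell, against 36.2% and 35.2% of all genes tested. Between d10 and d15, 16 rose and 5 fell, against 39.3% and 40.5%, and between d7 and d15, 13 rose and 5 fell, against 25.9% and 30.5%. On this list DCN, LUM, FMOD, OGN, ASPN, ELN, SPARCL1 and LOXL4 had at most 3 reads in every library. Among the 12 that met the d20 conditions, FAP, FBN1, LOX and THY1 had d20 means of 22.2, 21.4, 9.93 and 4.63 times d0. PDGFRB was also the 1 late-onset gene among 39 receptor tyrosine kinases. Of those, 25 were tested, 23 had a d0 mean of at least 10 and 5 met the d20 conditions. For both lists, the share over all 13241 genes with such a d0 mean was 3.71%, and 9 of those genes were late-onset.

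SCN2A encodes a pore-forming alpha subunit of voltage-gated sodium channels, which carry the action potential in neurons. Its counts were 18.7, 14.4 and 28.7 at d0, 16.7, 19.5 and 15.9 at d1, and 23.1, 24.3 and 25.5 at d4. The d7 libraries held 129.8, 86.5 and 40.0, the d10 libraries 31.9, 25.3 and 32.3, the d15 libraries 164, 175 and 191 and the d20 libraries 83.7, 77.9 and 85.2. The d7 libraries spanned a wide range, with library 3 lowest but still above every d10 library. SCN2A fell by 1.34 between d7 and d10 (SE 0.28, limma adjusted p = 0.00022), rose by 2.53 between d10 and d15 (SE 0.28, adjusted p = 3.94e-08), and was 1.19 higher at d15 than at d7 (SE 0.28, adjusted p = 0.0011). Without library 3 of d7 the last of these was 0.73 (adjusted p = 0.0039), a smaller difference that still passed.

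Among the sodium channel genes, SCN9A had means of 73.5 at d0 and 84.7 at d20. The alpha subunit genes SCN1A, SCN3A and SCN4A had at most 3 reads in every library, and SCN3A, which lies in part on the opposite strand of SCN2A, had a highest mean of 0.66. The beta subunit gene SCN4B had a mean of 77.5 untreated, d7 and d15 means of 329 and 314, a d10 mean of 49.7 and a d20 mean of 92.5. SCN4B was thus high at d7 and d15, like SCN2A, but near its d0 mean at d20. Its d7 libraries were 439, 397 and 149.9, again with library 3 lowest.

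The d7 and d15 timepoints were also those with high cell cycle inhibitor mRNA. CDKN1A, the gene of the inhibitor p21, had d7 libraries of 22956, 20637 and 4840, a d10 mean of 2742, a d15 mean of 23196 and a d20 mean of 5801. The proliferation marker MKI67 had d7 libraries of 7210, 6834 and 11850, a d10 mean of 11288, a d15 mean of 3291 and a d20 mean of 12122. Library 3 of d7 thus had the lowest CDKN1A and the highest MKI67 count of the d7 libraries, and the lowest counts for SCN2A and BGN. For PDGFRB the lowest d7 count was that of library 2 (31.3), against 33.5 in library 3 and 48.5 in library 1.

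Of 28 tested p53 targets and CDK inhibitors, 1 rose and 24 fell between d7 and d10, 24 rose and 2 fell between d10 and d15, and 14 rose and 2 fell between d7 and d15. Of 20 proliferation genes, 13 rose and 2 fell, 0 rose and 20 fell, and 0 rose and 20 fell in the same 3 comparisons. These counts stand against 36.2% of all genes rising and 35.2% falling between d7 and d10, 39.3% and 40.5% between d10 and d15, and 25.9% and 30.5% between d7 and d15. The summed count of the p53 list ran from 33827 to 73983 over the d7 libraries, from 25890 to 26658 over those of d10, from 75243 to 76592 over those of d15 and from 34952 to 37228 over those of d20. The summed count of 23 epithelial markers ran from 470326 to 861778 over the d7 libraries, from 304856 to 312180 over those of d10, from 620115 to 641081 over those of d15 and from 357458 to 365718 over those of d20. Of the 23 epithelial markers, 3 rose and 18 fell between d7 and d10, and 16 rose and 7 fell between d10 and d15. Between d7 and d15, 5 of them rose and 13 fell. Other lists also fell and then rose. Of 12 tested complement genes, 1 rose and 9 fell between d7 and d10, and 11 rose and 1 fell between d10 and d15. For 39 lysosome and autophagy genes the counts were 3 and 31, then 29 and 6. For 40 interferon-stimulated genes they were 1 and 37, then 26 and 5. The 30 cholesterol and fatty acid synthesis genes went the other way, with 24 and 3, then 5 and 23. The shares over all genes are those given above for the same comparisons. At d20, BGN and PDGFRB kept 0.84 and 0.72 of their d15 means and SCN2A 0.47. The part of these gene groups in the d7 and d15 values of SCN2A, BGN and PDGFRB was not tested.

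MAP1A encodes a microtubule-associated protein best known from neuronal dendrites. Its counts were 55.2, 54.3 and 57.4 at d0, 30.3, 31.8 and 46.6 at d1, and 24.2, 30.2 and 20.6 at d4, so every early library lay below every d0 library. Counts in the d7 libraries were 69.7, 73.0 and 56.8, the d10 libraries 67.7, 59.3 and 61.6, the d15 libraries 64.3, 57.0 and 69.4 and the d20 libraries 234, 248 and 283. From d7 to d15 the libraries overlapped, and those of d20 were above all others, with a mean 4.59 times that of d0 and 4.02 times that of d15. No change between d7, d10 and d15 passed the limma test: d15 differed from d10 by 0.01 (95% interval -0.32 to 0.35) and d10 from d7 by -0.07 (interval -0.41 to 0.26).

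MAP1B, the closest relative of MAP1A, had means of 1.47 at d0, 20.2 at d15 and 52.98 at d20. It could not enter the set because its d0 mean was under 10. MAP2 had means of 92.0 at d0 and 58.5 at d20, MAP4 had means of 5808 and 7087, and MAPT, the gene of tau, had means of 97.0 and 113. MAPT was high at d15 with a mean of 242, and low at d10 with 62.1. MAP1A and MAP1B thus had their highest means at d20, and MAPT and MAP2 did not.

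TMPRSS15 encodes enteropeptidase, the membrane-anchored serine protease that activates trypsinogen in the duodenum. Its counts were 41.8, 25.5 and 31.7 at d0, 29.3, 32.8 and 22.8 at d1, and 35.8, 34.1 and 30.4 at d4. Libraries of d7 had 62.3, 42.8 and 61.4, the d10 libraries 56.7, 69.0 and 56.7, the d15 libraries 148, 163 and 152 and the d20 libraries 159, 165 and 165. All d7 libraries were above all earlier ones, d7 and d10 overlapped, and d15 was above both. TMPRSS15 rose by 1.33 between d10 and d15 (SE 0.17, limma adjusted p = 4.61e-07) and was 1.48 higher at d15 than at d7 (SE 0.17, adjusted p = 3.44e-07). The d10 against d7 difference was 0.14 (95% interval -0.22 to 0.51).

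Some membrane-anchored serine protease genes had lower means at d20 than at d0. ST14, the gene of matriptase, had means of 4602 at d0 and 1235 at d20, TMPRSS4 had means of 279 and 22.1, and TMPRSS13 had means of 134 and 13.1. TMPRSS11E was instead higher at d20, with means of 20.2 and 26.3. None of the 11 looked at met the d20 conditions, but those with a d0 mean under 10, among them TMPRSS2 and CORIN, could not. Of all genes with a d0 mean of at least 10, 3.71% met them. Of the trypsinogen genes, PRSS1 and PRSS2 had at most 3 reads in every library. PRSS3 was among the 491 genes that met the d0 and d20 conditions, with a d20 mean of 3.75 times d0 and a highest early ratio of 5.31.

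SHISA9 encodes a membrane protein that modulates AMPA-type glutamate receptors. Its counts were 120.1, 126 and 108 at d0, 117, 130.3 and 159.8 at d1, and 110.4, 114 and 128 at d4. The d7 libraries held 151, 151 and 158, the d10 libraries 219.9, 237 and 234, the d15 libraries 337, 392 and 318 and the d20 libraries 404, 419 and 385. From d4 to d15 the libraries of each timepoint were above those of the one before, and d15 overlapped d20. SHISA9 rose by 0.58 between d7 and d10 (SE 0.10, limma adjusted p = 3.32e-05), by 0.59 between d10 and d15 (SE 0.10, adjusted p = 1.99e-05) and by 1.17 between d7 and d15 (SE 0.10, adjusted p = 4.09e-09). SHISA9 was thus higher at each of these timepoints than at the one before.

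The receptor genes themselves were scarcely measured. GRIA1 and GRIA2 had at most 3 reads in every library, GRIA3 had a highest mean of 11.1 and GRIA4 one of 2.95. Of the other SHISA genes, SHISA4 had means of 123 at d0 and 185 at d20, with 80.8 and 297 on d10 and d15, and SHISA5 had means of 1347 at d0 and 1602 at d20. Neither met the d20 conditions.

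C14orf132 had counts of 24.0, 17.8 and 16.8 at d0, 15.7, 14.4 and 13.9 at d1, and 13.7, 9.74 and 15.7 at d4. Counts in the d7 libraries were 21.1, 26.1 and 27.0, the d10 libraries 20.9, 17.5 and 21.5, the d15 libraries 27.5, 39.8 and 44.5 and the d20 libraries 60.4, 38.9 and 50.9. The d15 libraries were above those of d7 and d10 and overlapped those of d20. C14orf132 rose by 0.85 between d10 and d15 (SE 0.23, limma adjusted p = 0.0019), a call lost with quantile normalization (0.38, adjusted p = 0.13). It was 0.55 higher at d15 than at d7 (SE 0.23, adjusted p = 0.043), but the call held under 5 of 13 alternatives, with an adjusted p of up to 0.18.

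MGC23284 is a symbol that matched no entry of the reference tables, and its gene is not identified here. Its counts were 29.4, 16.1 and 22.8 at d0, 26.2, 28.7 and 28.8 at d1, and 19.98, 23.4 and 21.5 at d4. Libraries of d7 had 23.2, 24.0 and 24.2, the d10 libraries 26.9, 23.3 and 31.3, the d15 libraries 15.3, 17.2 and 26.9 and the d20 libraries 56.2, 60.0 and 54.8. Before d20 the timepoints overlapped with d0, and the d20 libraries were above all others. MGC23284 fell by 0.47 between d10 and d15 (SE 0.21, limma adjusted p = 0.049), a call that held under 4 of 13 alternatives (the largest fall, 0.95, with quantile normalization), with an adjusted p of up to 0.22.

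Across the set, 1 of 9 members had a mean of at least 2.5 times d0 at d7 (SCN2A), against 4.58% of the 13241 genes with a d0 mean of at least 10. At d10 there were 0 of 9, against 3.68%, and at d15 there were 5 of 9 (TMPRSS15, SCN2A, BGN, SHISA9 and PDGFRB), against 6.25%. Of the 461 early-onset genes, 68.1%, 79.2% and 68.5% were past this fold at d7, d10 and d15. The d0 means and the d20 condition entered the choice of both sets, so these shares are a description. The median log2 ratio to d0 of the 9 genes took the values -0.39 (d1), -0.07 (d4), 0.32 (d7), 0.17 (d10), 1.56 (d15) and 1.93 (d20). That of the early-onset genes was 1.55, 1.74, 1.57, 1.79, 1.71 and 1.97 on the same days, and the median over all tested genes stayed between 0.00 and 0.03. After every library was scaled to an equal total, the median of all genes moved by -0.22 at d10 and that of the 9 genes to -0.05, so the members' median kept its place above that of all genes, and its sign against d0 depended on the scaling.

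**Figure D3:**
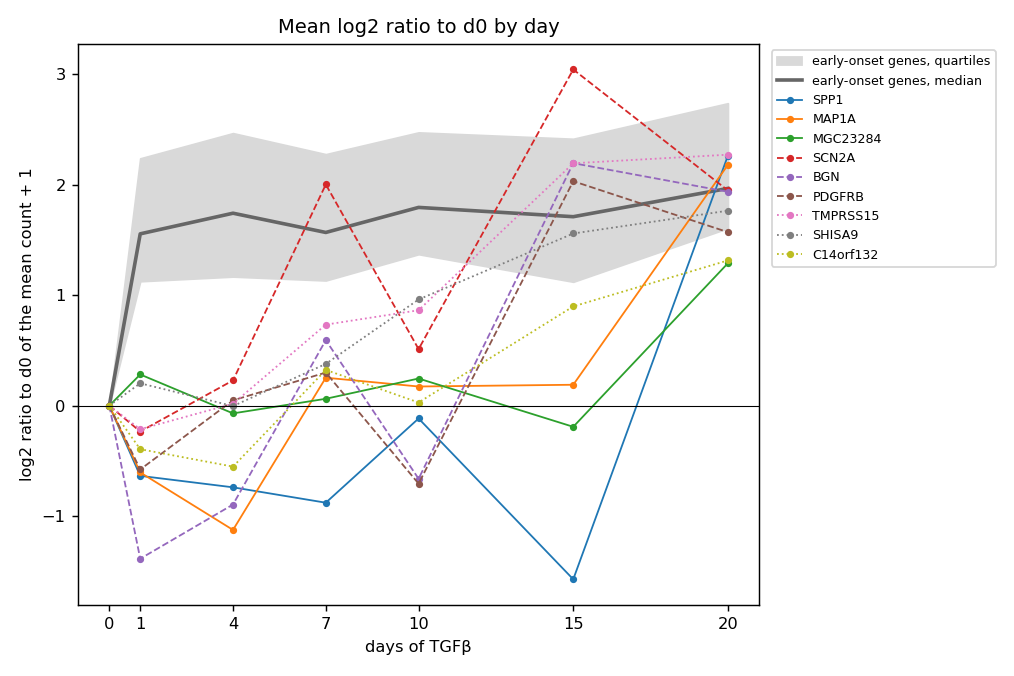
Log2 ratio to d0 of the mean count + 1 (y axis) against days of TGFβ (x axis) for each late-onset gene (coloured lines) and for the early-onset genes (grey line, median; grey band, quartiles). The early-onset median was 1.55 at d1 and 1.97 at d20, and the late-onset genes stayed between -1.38 and 0.28 at d1 and reached 1.29 to 2.27 at d20.

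In the tested comparisons, 1 of 9 members rose between d7 and d10 (SHISA9), against 36.2% of all 13343 genes tested, and 3 fell (SCN2A, BGN and PDGFRB), against 35.2%. Between d10 and d15, 6 rose (SCN2A, BGN, PDGFRB, TMPRSS15, SHISA9 and C14orf132), against 39.3%, and 2 fell (SPP1 and MGC23284), against 40.5%. Between d7 and d15, 6 rose (the same 6), against 25.9%, and 0 fell by limma or at an unadjusted p under 0.05, by edgeR or by DESeq2, against 30.5%. Calls of either direction were thus common among all genes, and differences of at least 1 on the log2 scale were less so. The genes tested as a whole were not chosen for a low d4 and a high d20, so the shares are a description. With that minimum, 0 members rose (3.63% of all genes) and 3 fell (9.09%) between d7 and d10, 4 rose (12%) and 1 fell (10.2%) between d10 and d15, and 5 rose (1.9%) and 0 fell (3.6%) between d7 and d15. The members' median log2 difference was -0.07 between d7 and d10, against 0.00 over all genes, 0.85 between d10 and d15, against -0.01, and 1.17 between d7 and d15, against -0.02.

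Of the 461 early-onset genes, 228 rose and 130 fell between d7 and d10, with a median log2 difference of 0.23. Between d10 and d15, 171 rose and 224 fell, with a median of -0.19, and between d7 and d15, 158 rose and 134 fell, with a median of 0.03. No test of the difference between the 2 sets was made.

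**Figure D4:**
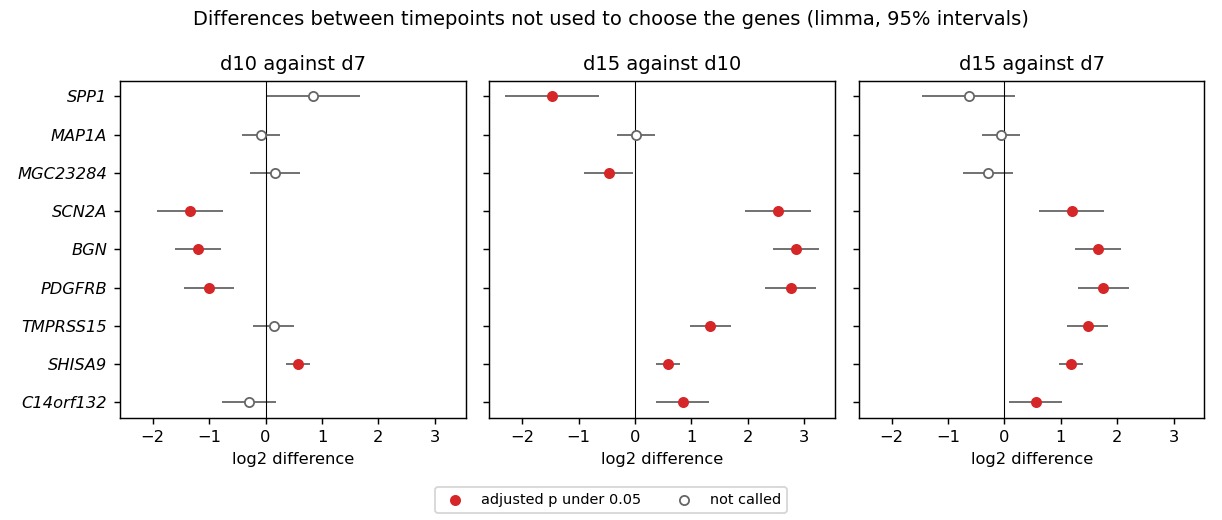
Log2 difference of log2(count + 1) between timepoints (x axis) for the 9 late-onset genes (y axis) from limma, with 95% intervals; filled points passed an adjusted p of 0.05 and open points did not. SCN2A, BGN and PDGFRB lay between -1.34 and -1.002 for d10 against d7 and between 2.53 and 2.86 for d15 against d10, and MAP1A lay between -0.07 and 0.01 in all 3 comparisons.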

How the data were processed

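The deposited values are named normalised read counts (a signal) and cover 23201 gene symbols in 21 libraries, with column headers that give only the timepoint. Each value was taken as the reads of a gene divided by 1 size factor per library, which was inferred from the low values. Whole reads were recovered for 100% of low values (up to 200 reads, within 0.1 of a whole read). The submitters' processing notes name STAR 2.7, Salmon 1.4 and the build hg19, and the roles of these tools, the annotation and strand setting are not given in the sources used here. Depth was 18847917 to 22667754 reads per library. A gene with at most 3 reads was treated as at the floor.

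Genes with a mean of at least 10 over the libraries (13343) were tested on log2(count + 1) with limma 3.58.1 in R 4.3.3 (eBayes with a trend, 1 mean per timepoint, all 21 libraries in the fit). Adjusted p-values are Benjamini-Hochberg values within each comparison. The comparisons were d10 against d7, d15 against d10 and d15 against d7. P-values rest on the spread between libraries within timepoints, pooled over all 7 timepoints and moderated across genes. The wider spread at d7 was thus averaged with that of the other timepoints. With only the 2 compared timepoints in the fit, limma adjusted p was 0.039 for SCN2A (d15 against d7). It was 0.0050 for BGN (d10 against d7). The recovered reads were also tested with edgeR 4.0.16 (quasi-likelihood) and DESeq2 1.42.0. The test was run on counts simulated with the same dispersion for every gene and timepoint, for d15 against d10 only. That run did not cover the wider spread of d7. Promoter windows and gene names were matched by exact symbol to RefSeq (GRCh38.p14), and overlaps came from GENCODE.

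The members and gene lists were chosen with earlier results of these data known. Relatives and partners of the members were chosen later. All members are reported. The sets named around the thresholds are the 3 members inside and 3 genes outside, with PSTPIP1 named for the d20 minimum.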

Additional observations from a re-analysis of the deposited data

How the results depend on the processing

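No paired analysis was possible because replicate numbers are missing from the column names. Of 351 alternative values for single members, 318 kept direction and side of the threshold. The calls for SCN2A, BGN, PDGFRB, TMPRSS15 and SHISA9 held under all 13 alternatives of each comparison in which they were made. With quantile normalization 4 members rose between d7 and d10, and the differences of MAP1A (0.26) and C14orf132 (0.15) there, and of MAP1A between d10 and d15 (-0.31), changed sign, none of them called, and the call of C14orf132 between d10 and d15 was lost. With 1 library left out, MAP1A, called nowhere, ran from -0.051 to 0.089 between d10 and d15, below 0 without library 2 of d10 (-0.027) or library 3 of d15, and from -0.17 to 0.015 between d7 and d15, above 0 without library 2 of d7 (0.010) or library 2 of d15. TMPRSS15 ran from -0.030 to 0.24 between d7 and d10, below 0 without library 2 of d7. The members that fell between d10 and d15 numbered 1 without the low-value filter, after rescaling each library to the same total, with only the compared timepoints in the fit, and with edgeR, DESeq2 or an absolute log2 difference of at least 1. With that minimum 0 members rose between d7 and d10, and the calls over all genes were 485 higher and 1213 lower between d7 and d10, 1596 and 1367 between d10 and d15, and 254 and 480 between d7 and d15, against 4833 and 4692, 5246 and 5403, and 3451 and 4063 without it. With 1 library left out, 1 to 2 members rose between d7 and d10 (2 without library 3 of d7 or library 2 of d10), 1 to 2 fell between d10 and d15 (1 without library 1 or 3 of d10 or library 1 or 2 of d15), and 0 to 1 fell between d7 and d15 (SPP1 without library 2 of d7, MGC23284 without library 3 of d15). The median log2 ratio to d0 after rescaling took the values 0.14 (d7), -0.050 (d10) and 1.399 (d15), a step that moved the median of all genes by -0.19, -0.22 and -0.16. With quantile normalization it was 0.17 at d7 and 0.32 at d10. With 1 library left out it ran from 0.28 to 0.47 at d7, from 0.057 (without library 2 of d0) to 0.21 at d10 and from 1.47 to 1.62 at d15. The set numbered 20 genes at a d20 limit of 2-fold, 15 with a ceiling of 1.5 at d1 and d4, and 5 with a d0 mean of at least 30. After rescaling it numbered 13, of which 7 were among the 9. With medians in place of means it numbered 10, of which 7 were among the 9, without MGC23284 and SCN2A. The causes were not tested. The low counts of SPP1, C14orf132 and MGC23284, 2 to 77 reads per library, limit the precision for these genes.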

Other observations

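Genes next to the late-onset genes were looked up by their order on the chromosome. For the 8 members placed in the RefSeq gene order, 10 of the 16 neighbouring protein-coding genes had a d0 mean of at least 10. Of these 10, 0 met the d20 conditions, against 3.71% of all genes with such a d0 mean. With so low a share, 0 of 10 does not set the neighbours apart. The other 6 were under that d0 mean and could not meet them. The d20 to d0 ratios of the 10 neighbours with that d0 mean ran from 0.43 to 2.03 with a median of 0.96. The highest was that of CPPED1, next to SHISA9, and the lowest that of CHODL, next to TMPRSS15. The neighbours of SPP1 and SCN2A on one side, MEPE and SCN3A, are relatives of these genes and had at most 3 reads in every library.

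The genes just above the ceiling at d1 and d4 varied in their time course. GLIPR2 had a d0 mean of 63.4, d7 and d10 means of 188 and 99.997, and d15 and d20 means of 297 and 303. EDA2R, a p53-induced receptor of the TNF receptor family, had means of 51.1, 210.0, 76.9, 275 and 152 on the same days. Both were lower at d10 than at d7 and d15. FSD1 had means of 38.7, 52.8, 153, 62.4 and 208 on the same days, and was instead higher at d10 than at d7 and d15. These genes were chosen for their place beside the threshold, and no test was made of their likeness to the members.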
